A study of Mus musculus with 4 samples.

Results

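Levels of RNA were examined for 10 genes that control the resumption of meiosis in mouse oocytes, chosen by name from the 25587 genes listed with RNA-Seq values: Cdk1, the B-type cyclin genes Ccnb1, Ccnb2 and Ccnb3, the inhibitory kinase genes Wee2 and Pkmyt1, the phosphatase genes Cdc25a, Cdc25b and Cdc25c, and Mos. All 10 were found under their own symbols, each in a single row. The oocytes came from wild-type C57BL/6 mice (C57BL/6Babr) and were pooled by stage of follicular growth into 1 library per stage. NGOs (non-growing oocytes) came from mice of 5 days and measured 10 to 40 µm, GO1 (growing oocytes) from mice of 8 to 14 days at 25 to 70 µm, GO2 from mice of 15 days at 50 to 70 µm, and FGOs (fully grown oocytes at the germinal vesicle stage) from mice of 20 days at more than 70 µm. Total RNA was depleted of ribosomal RNA. A dUTP protocol was used for NGOs and FGOs and the ScriptSeq v2 kit for growing oocytes, so stage and protocol cannot be told apart between NGOs and GO1 or between GO2 and FGOs. Changes were therefore computed within each protocol, from NGOs to FGOs on one side and GO1 to GO2 on the other, and the other steps are given as values side by side.

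A fully grown oocyte is held at the prophase of the first meiotic division until a hormonal signal releases it. Release requires the kinase CDK1 in complex with a B-type cyclin, a pair known as maturation promoting factor. WEE2 (also called WEE1B) and PKMYT1 (MYT1) keep CDK1 inactive by phosphorylating it, CDC25 phosphatases remove these phosphates, and MOS, a kinase made in germ cells, switches on the MAP kinase branch that later holds the egg at metaphase of the second division. Much of this control acts on translation and on protein, and only RNA was measured here.

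The promoters of Cdk1, its 3 cyclin genes and Wee2 are shown because Cdk1, Ccnb1 and Ccnb2 are textbook genes of the G2 and M phases of dividing cells, whereas Ccnb3 and Wee2 are known for their part in germ cells. Each run holds 250 bases before and 50 bases from the RefSeq start site, read 5′ to 3′ on the strand of the gene (GRCm38.p6). Whether transcription starts at this site in oocytes was not examined. The windows are chr10:69352863-69353162 on the minus strand for Cdk1, chr13:100786437-100786736 on the minus strand for Ccnb1, chr9:70421505-70421804 on the minus strand for Ccnb2, chrX:7041570-7041869 on the minus strand for Ccnb3 and chr6:40442613-40442912 on the plus strand for Wee2. Capitals mark CCAAT boxes, on either strand (CCAAT or ATTGG), and the cell cycle homology region letters TTTGAA, on either strand.
Cdk1: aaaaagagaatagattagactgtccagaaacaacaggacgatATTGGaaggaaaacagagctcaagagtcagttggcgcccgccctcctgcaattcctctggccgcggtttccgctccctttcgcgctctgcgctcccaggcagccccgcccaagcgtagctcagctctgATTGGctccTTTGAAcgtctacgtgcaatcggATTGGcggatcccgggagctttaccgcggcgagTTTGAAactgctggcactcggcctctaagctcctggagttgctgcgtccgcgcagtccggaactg
Ccnb1: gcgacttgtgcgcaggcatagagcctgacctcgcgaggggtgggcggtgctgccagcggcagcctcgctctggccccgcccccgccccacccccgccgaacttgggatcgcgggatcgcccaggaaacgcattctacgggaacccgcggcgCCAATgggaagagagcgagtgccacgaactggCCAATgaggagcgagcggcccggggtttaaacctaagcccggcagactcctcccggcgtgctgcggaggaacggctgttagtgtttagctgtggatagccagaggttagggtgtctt
Ccnb2: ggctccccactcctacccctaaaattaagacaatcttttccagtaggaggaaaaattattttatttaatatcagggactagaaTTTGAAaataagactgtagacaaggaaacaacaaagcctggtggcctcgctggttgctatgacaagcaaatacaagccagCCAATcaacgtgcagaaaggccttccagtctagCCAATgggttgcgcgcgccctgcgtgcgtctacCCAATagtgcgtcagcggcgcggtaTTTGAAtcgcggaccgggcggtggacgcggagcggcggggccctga
Ccnb3: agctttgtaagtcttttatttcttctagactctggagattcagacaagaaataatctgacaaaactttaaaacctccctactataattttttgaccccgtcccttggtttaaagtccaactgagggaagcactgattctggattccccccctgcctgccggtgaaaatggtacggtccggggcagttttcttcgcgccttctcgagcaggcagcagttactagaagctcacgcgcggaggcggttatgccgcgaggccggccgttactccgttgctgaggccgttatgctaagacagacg
Wee2: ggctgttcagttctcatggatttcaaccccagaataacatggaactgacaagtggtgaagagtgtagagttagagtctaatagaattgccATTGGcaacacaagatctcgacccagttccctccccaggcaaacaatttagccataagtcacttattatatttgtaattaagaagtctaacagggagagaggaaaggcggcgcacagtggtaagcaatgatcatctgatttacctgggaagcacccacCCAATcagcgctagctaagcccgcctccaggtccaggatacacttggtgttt

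Cdk1 and the cyclin genes Ccnb1 and Ccnb2 each held a pair of CCAAT boxes at nearly the same distance. The boxes of a pair had the same orientation, which was ATTGG in Cdk1 and CCAAT in Ccnb1 and Ccnb2. They began 32 bases apart in Cdk1 (at -80 and -48), 32 apart in Ccnb1 (at -99 and -67) and 33 apart in Ccnb2 (at -87 and -54, with a further box at -21), counted from the RefSeq start site. The row with the RNA level begins 84 bases further upstream for Ccnb1, so that its box at -67 lies within the row, and 26 bases further upstream for Cdk1. A pair of CCAAT boxes in one orientation that begin 31 to 33 bases apart was present in 3 of the 7 maturation genes with a RefSeq window and in 0.794% of the 32851 windows in the table; this spacing was chosen after the sequences had been seen. At least 1 CCAAT box was held by 6 of the 7 (Cdk1, Ccnb1, Ccnb2, Wee2, Cdc25a and Cdc25b), against 37.4% of all windows. TTTGAA was held by Cdk1 and Ccnb2, 2 of the 7, against 17.9% of all windows. A variant of it, TTCGAA, was held by Cdc25b, 1 of the 7, against 1.56%. No further variants of this region were searched, so a window without either may still hold another. The E-box letters CANNTG, which the oocyte factor FIGLA is known to bind, were held by 5 of the 7 (Cdk1, Ccnb3, Wee2, Cdc25a and Cdc25b), against 72.3%. The CCAAT and TTTGAA matches do not overlap each other. A match is a stretch of letters and was not measured as a binding site.

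All 10 genes were detected in all 4 libraries, each with at least 490 counts in every library, where a gene counted as detected with 3 counts. Levels are RPKM (reads per kilobase of exon, relative to the total of the library), and are therefore shares of that library's reads corrected for gene length. In such bulk samples, fewer cells that express a gene and less of its RNA per cell cannot be told apart. The median of the 10 levels was 20.5 RPKM in NGOs and 26.5 in FGOs, with 16.7 in GO1 and 19.9 in GO2, where the median over all listed genes lay between 0.143 and 0.173 RPKM. The median place of the 10 genes among all listed genes was the 92.7th percentile in NGOs and the 94.6th in FGOs, with the 91.5th in GO1 and the 92.8th in GO2. Mos had the highest level of the group in NGOs and FGOs and Wee2 in GO1 and GO2. In FGOs, Mos had the 79th highest RPKM of the whole list, Wee2 the 132nd and Ccnb1 the 157th, and Cdc25c, the lowest of the group there, the 7785th.

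The libraries were deep relative to these levels. The totals that the RPKM had been divided by were 110595217 to 241385714 counts, and the 95% exact Poisson interval of any member level reached at most 9.26% above the value. These totals exceed the numbers of uniquely mapped reads stated for the libraries, so the counts overstate the depth and the intervals are too narrow. With the counts divided by 4 the widest interval reached 19.4% above the value. These intervals cover counting error only, and the variation between oocyte pools of one stage has not been measured. The 12 oocyte markers were detected in every library. They summed to 7242 RPKM in NGOs and 5144 in FGOs, with 5237 in GO1 and 5091 in GO2. Of the 12, only Bmp15 and Oosp1 were higher in FGOs than in NGOs. The 10 granulosa cell markers summed to 6.37 RPKM in NGOs and 19.6 in FGOs, with 12.1 in GO1 and 16.5 in GO2, most of it from Nr5a2 and Cyp19a1, and 7 of the 10 were higher in FGOs than in NGOs. Cyp19a1 was at 0.518 RPKM in NGOs and 6.08 in FGOs, Kitl at 0.514 and 1.63, Inha at 0.638 and 1.54, Amh at 0.250 and 0.412, Fshr at 0.135 and 0.302, and Foxl2 at 0.0753 and 0.0265. The 10 stroma and theca markers summed to 5.89 RPKM in NGOs, led by Col1a1 at 2.24, and to 0.366 to 0.676 in the other libraries. The 7 blood and endothelium markers summed to 3.73 to 10.04 RPKM, of which Pecam1 gave 1.74 to 9.70. A list of 10 genes of dividing cells, several of which oocytes can express, summed to 188 RPKM in NGOs and 203 in FGOs, with 253 in GO1 and 233 in GO2.

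**Figure D1:**
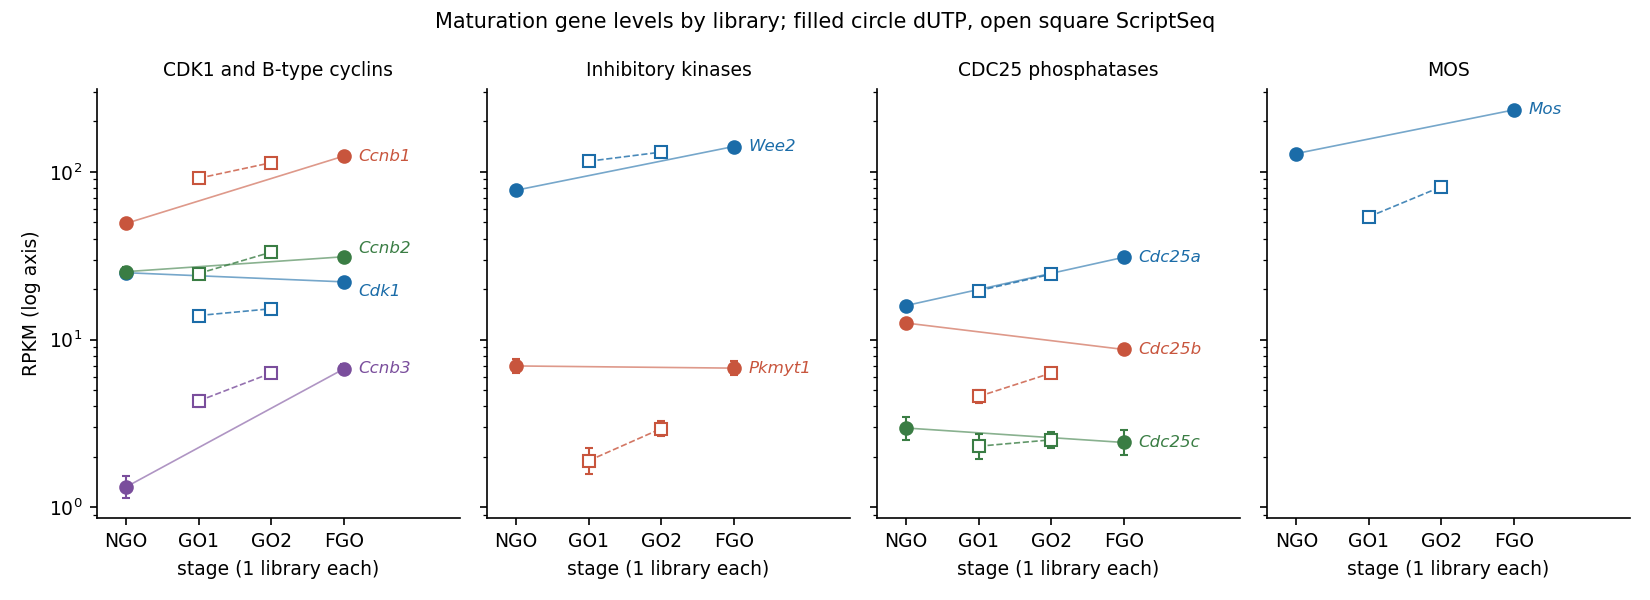
RPKM (log axis) of the 10 maturation genes in the 4 libraries, by role, with filled circles for dUTP libraries, open squares for ScriptSeq libraries, and lines that join libraries of one protocol. Error bars are 95% Poisson intervals with the counts divided by 4; Mos reached 234 RPKM in FGOs, and Cdk1, Pkmyt1, Cdc25b and Mos lay lower in both ScriptSeq libraries than in both dUTP libraries.

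The kinase gene Cdk1 (chr10:69336635-69352938, minus strand) hardly differed between the ends of growth. Its level was 25.03 RPKM in NGOs and 22.1 in FGOs, with 13.9 in GO1 and 15.3 in GO2. Between NGOs and FGOs it changed by -0.13 on the log2 scale (95% interval -0.17 to -0.09), and by 0.10 from GO1 to GO2 (0.06 to 0.14), both of them within the central 50% of all genes.

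The cyclin genes changed by different amounts during growth, and none of the 3 was lower in FGOs than in NGOs. Ccnb1 (chr13:100778650-100786570, minus strand), which encodes the principal partner of CDK1, was at 49.3 RPKM in NGOs and 124 in FGOs, with 91.6 in GO1 and 113 in GO2. It was higher in each library than in the one before, and the change from NGOs to FGOs was 2.61-fold (2.57 to 2.65), larger than that of 87.0% of the genes tested. From GO1 to GO2 it was 1.21-fold (1.197 to 1.222).

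Ccnb2 (chr9:70407689-70421554, minus strand), whose product can stand in for cyclin B1 in oocytes, was at 25.4 RPKM in NGOs and 31.2 in FGOs, with 24.8 in GO1 and 33.2 in GO2. In the NGO library the intervals of Ccnb2 and Cdk1 overlapped. Ccnb2 was higher by 1.27-fold in FGOs than in NGOs (1.22 to 1.32) and by 1.31-fold in GO2 than in GO1 (1.27 to 1.36).

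Ccnb3 (chrX:6979652-7041619, minus strand) encodes a meiotic cyclin that promotes anaphase of the first division. It was at 1.32 RPKM in NGOs and 6.67 in FGOs, with 4.30 in GO1 and 6.31 in GO2, the lowest of the group in NGOs. It was the only one of the 10 past 4-fold, with a change of 5.23-fold from NGOs to FGOs (4.82 to 5.69), which exceeded the change of 93.3% of the genes tested. From GO1 to GO2 the change was 1.43-fold (1.369 to 1.501).

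Within the B-type cyclins, Ccnb1 gave 64.8% of the summed RPKM in NGOs and 76.6% in FGOs, with 75.9% in GO1 and 74.2% in GO2. Ccnb3 gave 1.74% in NGOs and between 3.57% and 4.13% afterwards. A ratio taken within a library does not depend on the scaling between libraries. The ratio of Ccnb1 to Ccnb2 was 1.94 in NGOs (1.878 to 2.004) and 3.98 in FGOs (3.88 to 4.09), with 3.70 in GO1 and 3.41 in GO2.

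The balance of cyclin to kinase RNA also differed. Summed cyclin B RNA stood at 3.04 times the level of Cdk1 in NGOs (2.96 to 3.11) and at 7.34 times in FGOs (7.176 to 7.499), which is 2.42-fold higher (2.34 to 2.50). In GO1 it was 8.68 times (8.45 to 8.91) and in GO2 10.02 times (9.84 to 10.2), a difference of 1.15-fold (1.12 to 1.19). The lower Cdk1 level in both ScriptSeq libraries enters these 2 ratios.

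Of the genes that restrain CDK1, Wee2 (chr6:40442863-40466813, plus strand), the oocyte member of the WEE1 family, was abundant in every library and higher in FGOs than in NGOs. Its level was 77.7 RPKM in NGOs and 142 in FGOs, with 116 in GO1 and 131 in GO2. FGOs exceeded NGOs 1.89-fold (1.86 to 1.92) and GO2 exceeded GO1 1.11-fold (1.10 to 1.12). Wee1, the relative used by somatic cells, was at 10.2, 12.3, 10.8 and 7.94 RPKM in NGOs, GO1, GO2 and FGOs. The ratio of Wee2 to Wee1 was accordingly higher in each library than in the one before, at 7.65 (7.32 to 7.99), 9.44 (9.10 to 9.80), 12.1 (11.8 to 12.5) and 17.8 (17.0 to 18.7).

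Pkmyt1 (chr17:23726336-23736729, plus strand), which encodes the membrane-bound inhibitory kinase, did not differ between the ends of growth beyond counting error. It was at 6.96 RPKM in NGOs and 6.75 in FGOs, with 1.90 in GO1 and 2.94 in GO2. On the log2 scale it changed by 0.01 between NGOs and FGOs (-0.09 to 0.11), and the change from GO1 to GO2 was 1.52-fold (1.37 to 1.68), larger than that of 86.2% of the genes tested. It shares 544 bases with Paqr4 on the other strand, which was at 12.3 to 17.0 RPKM, and the strand setting of the counting is not given in the sources used here. The ratio of Wee2 to Pkmyt1 was 11.2 in NGOs (10.6 to 11.8) and 21.0 in FGOs (19.96 to 22.02), while it was 61.0 in GO1 (55.8 to 66.7) and 44.5 in GO2 (42.3 to 46.9).

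The 3 phosphatase genes took different courses. Cdc25a (chr9:109875579-109893888, plus strand), which is also known for S phase entry in dividing cells, was at 15.95 RPKM in NGOs and 30.9 in FGOs, with 19.6 in GO1 and 24.5 in GO2. It was higher at each step, and the change from NGOs to FGOs was 2.01-fold (1.95 to 2.07), so its place on either side of 2-fold is within the error; it fell short of 2-fold with the libraries scaled by their deposited totals, at a log2 change of 0.96. From GO1 to GO2 it was 1.22-fold (1.19 to 1.26).

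Cdc25b (chr2:131186949-131198497, plus strand), the phosphatase that mouse oocytes need to resume meiosis, was at 12.5 RPKM in NGOs and 8.73 in FGOs, with 4.58 in GO1 and 6.31 in GO2. Unlike Cdc25a it was lower in FGOs than in NGOs, with a log2 change of -0.47 (-0.53 to -0.41), and it was 1.35-fold higher in GO2 than in GO1 (1.28 to 1.42). It shares 334 bases with Spef1 on the other strand, which did not exceed 0.155 RPKM.

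Cdc25c (chr18:34732997-34751533, minus strand), which mice can do without, was at 2.97 RPKM in NGOs and 2.43 in FGOs, with 2.31 in GO1 and 2.52 in GO2. Between NGOs and FGOs it changed by -0.23 on the log2 scale (-0.40 to -0.07), and by 0.09 from GO1 to GO2 (-0.05 to 0.24). With the counts divided by 4, both intervals included 0 (-0.57 to 0.10 and -0.20 to 0.40). The row lies over 1656 bases of Gm3550 on the other strand, which was at 1.30 to 3.27 RPKM.

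The mixture of CDC25 RNA was not constant. Cdc25a gave 50.7% of the summed RPKM of the 3 genes in NGOs and between 73.5% and 74.0% in the other libraries, and Cdc25b gave 39.9% in NGOs and between 17.3% and 20.7% in the others. The ratio of Cdc25a to Cdc25b was 1.27 in NGOs (1.23 to 1.32) and 3.54 in FGOs (3.42 to 3.67), with 4.27 in GO1 (4.08 to 4.48) and 3.89 in GO2 (3.774 to 4.002).

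Set against each other, RNA for the activating phosphatases was below that for the inhibitory kinases in every library. The ratio of the summed CDC25 genes to Wee2 and Pkmyt1 was 0.372 in NGOs (0.364 to 0.380) and 0.284 in FGOs (0.279 to 0.289), with 0.225 in GO1 (0.221 to 0.230) and 0.249 in GO2 (0.246 to 0.252). From NGOs to FGOs the ratio changed by a factor of 0.764 (0.743 to 0.785). Both sums were higher in FGOs, with CDC25 at 31.5 RPKM in NGOs and 42.1 in FGOs and the kinases at 84.7 and 148. Wee2 gave most of the kinase sum, 77.7 RPKM in NGOs and 142 in FGOs. From GO1 to GO2 the ratio changed by a factor of 1.11 (1.08 to 1.13), the opposite direction.

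**Figure D2:**
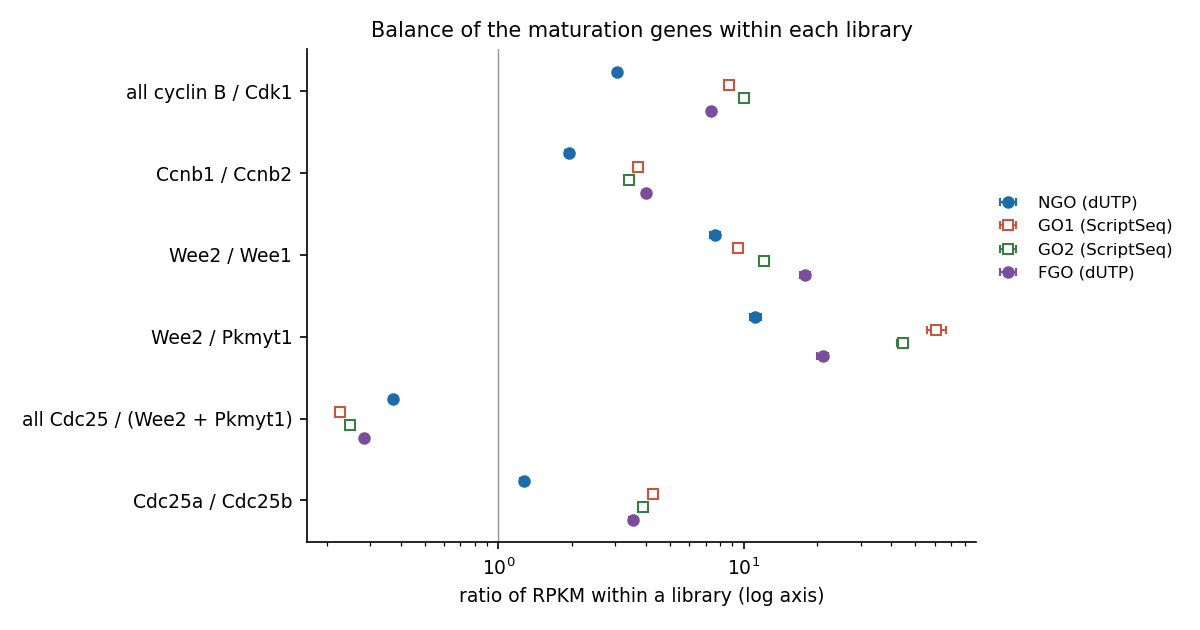
Ratios of RPKM within each library (log axis), with 95% intervals for counting error. The NGO library had the lowest cyclin B to Cdk1 ratio, 3.04, and the lowest Cdc25a to Cdc25b ratio, 1.27, and the Wee2 to Pkmyt1 ratio was highest in both ScriptSeq libraries.

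Mos (chr4:3870657-3872105, minus strand) had the highest level of the group in FGOs. It was at 128.5 RPKM in NGOs and 234 in FGOs, with 53.9 in GO1 and 81.5 in GO2. FGOs exceeded NGOs 1.89-fold (1.86 to 1.92) and GO2 exceeded GO1 1.48-fold (1.44 to 1.51). Both changes were above the median change of all genes, and Mos had the 79th highest RPKM of all listed genes in FGOs.

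The order of the 10 levels differed between libraries. Of the 9 pairs of neighbours in that order, the intervals with counts divided by 4 overlapped for Ccnb2 and Cdk1 in NGOs, for Cdc25b and Ccnb3 and for Cdc25c and Pkmyt1 in both GO1 and GO2, and for Ccnb2 and Cdc25a and for Pkmyt1 and Ccnb3 in FGOs. All other neighbours in a library were separated by more than their counting error.

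From NGOs to FGOs the median log2 change of the 10 genes was 0.63, against -0.01 over the 15253 genes tested. The change was above 0 for 7 of them, against 49.5% of all genes tested, and 1 of the 7 was Pkmyt1 at 0.01, which fell below 0 under another scaling. At least 4-fold higher was 1 of the 10 (Ccnb3), against 8.57% of all genes, and at least 2-fold higher were 3 (Ccnb1, Ccnb3 and Cdc25a), against 17.7%. None was at least 2-fold lower, where 16.8% of all genes were, or 4-fold lower, where 5.51% were. The count past 4-fold was close to the share of all genes. With counts divided by 4, the intervals of Pkmyt1 and Cdc25c included 0, those of 6 genes lay above 0 and those of Cdk1 and Cdc25b below 0.

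From GO1 to GO2 the median change was smaller than from NGOs to FGOs, although Ccnb2 and Pkmyt1 changed more. All 10 changes were above 0, against 51.5% of the 15737 genes tested. They ran from 0.09 (Cdc25c) to 0.60 (Pkmyt1) on the log2 scale, with a median of 0.34, against 0.02 over all genes. None was past 2-fold, a size reached upwards by 6.88% of all genes and downwards by 2.85%, or past 4-fold, reached by 1.51% and 0.254%. With counts divided by 4, the interval of Cdc25c alone included 0.

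**Figure D3:**
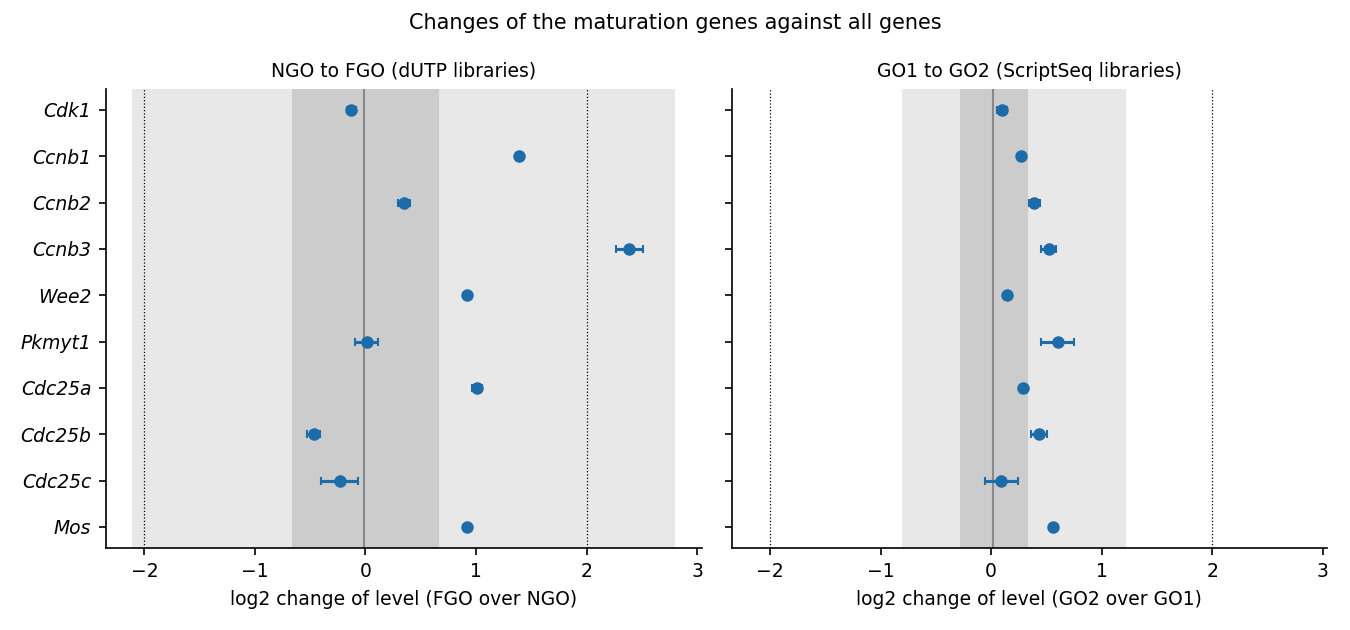
log2 change of each maturation gene within the dUTP pair (NGOs to FGOs) and the ScriptSeq pair (GO1 to GO2), with 95% exact intervals for counting error. Dark and light grey bands hold the central 50% and 90% of all genes tested, the grey line is their median and dotted lines mark 4-fold; Ccnb3 is past 4-fold from NGOs to FGOs, and all 10 genes lie above 0 from GO1 to GO2.

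Over the 4 libraries, 4 of the 10 genes (Ccnb1, Ccnb3, Wee2 and Cdc25a) had a higher RPKM at each step from NGOs to FGOs, against 11.3% of the 16664 genes with at least 20 counts over the libraries. None was lower at each step, against 9.65%. The steps from NGOs to GO1 and from GO2 to FGOs cross the protocols, so stage and protocol cannot be told apart in them. The summed level of the granulosa cell markers was also higher at each step, though most of these markers were not. Cyp19a1, Kitl and Fshr were higher at each step. Nr5a2 was lower in FGOs than in GO2, and Amh, Foxl2, Inha, Inhba, Amhr2 and Hsd17b1 were lower in GO1 than in NGOs. The part of granulosa cell RNA in the values of the 4 genes was not tested.

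A further 4 genes (Cdk1, Pkmyt1, Cdc25b and Mos) were lower in both ScriptSeq libraries than in both dUTP libraries, against 29.7% of all genes, and none was higher in both, against 21.4%. The GC content of the genes is given beside the size of this difference. The mean log2 RPKM of GO1 and GO2 minus that of NGOs and FGOs was -1.50 for Pkmyt1, whose longest coding transcript has a GC content of 62.5%, -1.39 for Mos (53.5%), -0.95 for Cdc25b (54.2%) and -0.69 for Cdk1 (47.8%). At the other end were Ccnb3 at 0.78 (41.3%), Ccnb1 at 0.38 (44.2%) and Wee2 at 0.23 (45.1%). Between them, Ccnb2 was at 0.03 (49.3%), Cdc25a at -0.02 (51.7%) and Cdc25c at -0.15 (47.8%), the last with nearly the GC content of Cdk1 but a smaller difference. Over 13623 genes with a transcript, the median of this difference was 0.24 in the lowest of 4 equal classes of GC content, 0.00 and -0.26 in the middle classes and -0.55 in the highest. Cdk1, Pkmyt1, Cdc25b and Mos each lay below the central 50% of the genes of their class. The lower bound was -0.30 in the class of Cdk1, -0.65 in that of Cdc25b and Mos, and -1.02 in that of Pkmyt1. Ccnb3 lay above the central 50% of its class, whose upper bound was 0.57, and the other maturation genes lay within theirs. The part of GC content in the values of the 4 genes was not tested, and the lower values in GO1 and GO2 cannot be told apart from a difference between protocols.

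**Figure D4:**
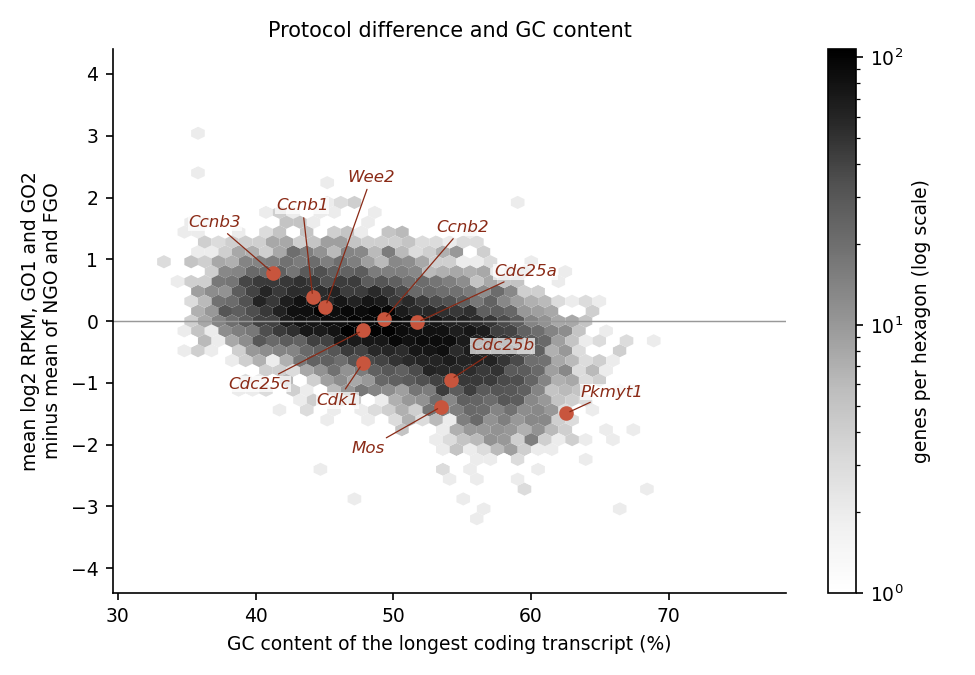
GC content of the longest coding transcript (%) against the mean log2 RPKM (with 0.1 added) of the 2 ScriptSeq libraries minus that of the 2 dUTP libraries, for 13623 genes (grey, shaded by number on a log scale) and the maturation genes (red). Pkmyt1 at -1.50 and Mos at -1.39 have the lowest values of the 10, and Ccnb3 at 0.78 the highest.

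None of the other genes that act with CDK1 changed as much as Ccnb1 or Ccnb3 from NGOs to FGOs. Of 20 such genes listed (other cyclins and CDKs, CDK activating kinase, CKS proteins, and the Polo, Aurora and Greatwall kinases, with regulators and PP2A subunits), 19 had enough counts and Ccna1 was listed at 0 in every library. None of the 19 was past 2-fold in either pair, against 17.7% of all genes upwards and 16.8% downwards in the dUTP pair and 6.88% and 2.85% in the ScriptSeq pair, and their median log2 change was 0.04 for the dUTP pair and -0.04 for the ScriptSeq pair. The 3 with the highest level in FGOs were Aurka, a spindle pole kinase, at 35.2 RPKM in NGOs and 49.0 in FGOs (log2 change 0.53), Plk1, a kinase that activates CDC25, at 26.2 and 34.8 RPKM (0.46), and Cks1b, which encodes a small protein bound by CDK1, at 24.7 and 31.1 RPKM (0.38). Their changes from GO1 to GO2 were 0.16, 0.19 and -0.04. Each was below the change of Ccnb1 in the same pair.

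In the MOS and MAP kinase branch, 10 genes were tested and none was past 4-fold in either pair. Of all genes, 8.57% were past 4-fold upwards and 5.51% downwards in the dUTP pair, and 1.51% and 0.254% in the ScriptSeq pair. From NGOs to FGOs, 2 of the branch were past 2-fold upwards and 1 downwards, close to the 17.7% and 16.8% of all genes. The median log2 change of the branch was -0.26. From GO1 to GO2 none was past 2-fold, against 6.88% of all genes upwards and 2.85% downwards, with a median of 0.18. Mapk3, which encodes the kinase ERK1 at the end of the branch, was one of those that were higher, at 28.2 RPKM in NGOs and 57.7 in FGOs, with 24.4 in GO1 and 33.3 in GO2 (log2 change from NGOs to FGOs 1.09). Map2k1, which encodes the kinase between MOS and ERK, was at 34.0 RPKM in NGOs and 37.8 in FGOs (0.20). The others past 2-fold, named after their values had been seen, were Fbxo43, which encodes the inhibitor EMI2 that keeps eggs at metaphase of the second division, at 10.5 RPKM in NGOs and 21.7 in FGOs (1.10), and Braf, at 1.17 and 0.467 RPKM (-1.27).

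**Figure D5:**
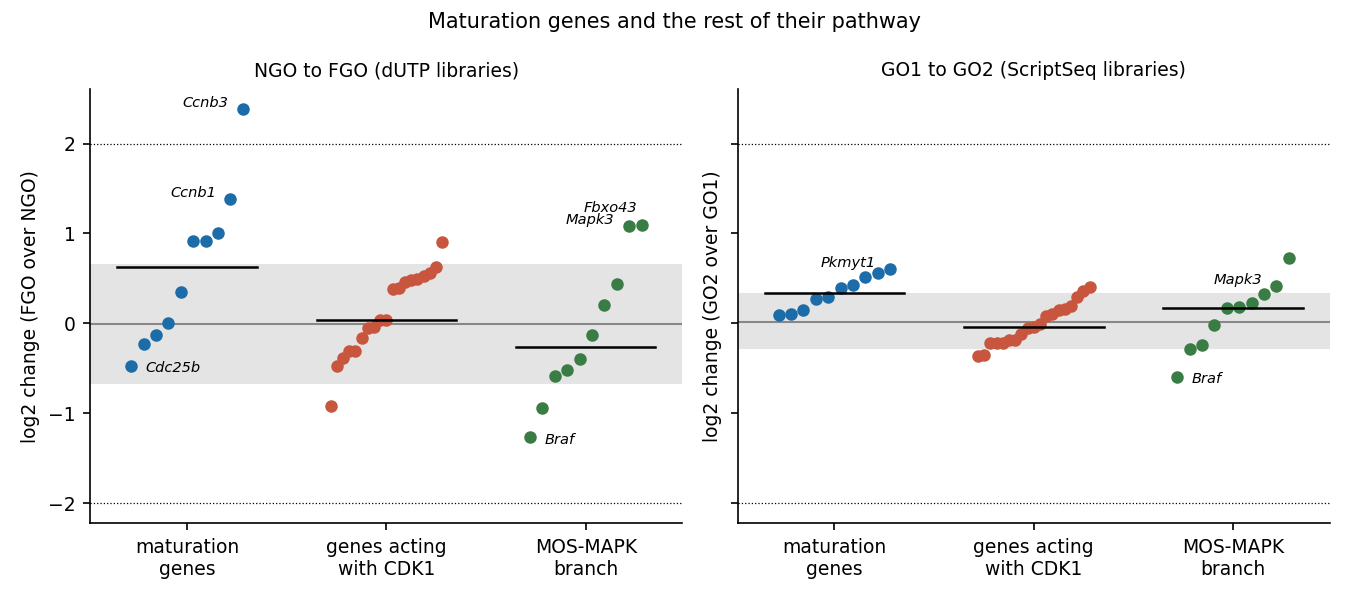
log2 change of the 10 maturation genes, the 19 tested genes that act with CDK1 and the 10 genes of the MOS and MAP kinase branch, 1 point per gene, with black bars at the medians. The grey band holds the central 50% of all genes tested, the grey line is their median and dotted lines mark 4-fold; from NGOs to FGOs the medians are 0.63, 0.04 and -0.26.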

How the data were processed

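RNA-Seq libraries of pooled NGOs, GO1, GO2 and FGOs, 1 per stage, were analysed. The submitters' processing notes name Trim Galore 0.2.8, TopHat2 2.0.9 and the build GRCm38, and the study kept 1 alignment per read. The values deposited by the authors are RPKM on a linear scale under a name that speaks of read counts. The counting program, annotation and strand setting are not given in the sources used here. Counts were recovered by finding, per library, the step that made single-exon genes whole (within 0.02) in at least 99.4% of values, and then the exon length that made a gene whole in all libraries. For Cdk1, Ccnb2, Wee2, Pkmyt1, Cdc25a and Cdc25c it is the smallest length that fitted, so true counts may be a multiple; RPKM is unaffected. The recovery was also run on counts simulated from the recovered lengths, which cannot show that those lengths are the true ones. GENCODE lists the pseudogenes Ccnb1-ps and Ccnb2-ps, which have no row, so reads of near-identical copies are uncertain.

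Changes are log2 ratios of recovered counts with a prior count of 1, scaled by trimming log ratios and averaging them (30% and 5% trimmed), for genes that reached 20 counts over both libraries. No test was possible with 1 library per stage. Intervals are 95% (exact Poisson, Clopper-Pearson for changes, log-normal for ratios). Named were every member, genes of the pathway lists past 4-fold and the 3 highest in FGOs of each list; 1 gene of these is counted in its list but not reported here. The members and lists were chosen with earlier results of these data known. Promoters and start sites are from RefSeq. Python 3.11.15, numpy 2.4.6, pandas 2.3.3, scipy 1.17.1 and matplotlib 3.10.9 were used. Alternative thresholds, scalings, prior counts, filters, units and windows were tried.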

Additional observations from a re-analysis of the deposited data

How the results depend on the processing

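No paired analysis was possible because each stage has 1 library. With a threshold of 2-fold in either direction, the number of the 10 genes changed from NGOs to FGOs was 3 and that of the MOS and MAP kinase branch was 3. Of all genes tested, 17.7% were past 2-fold upwards and 16.8% downwards. The count at 4-fold stayed at 1 under every other scaling, prior count, filter and unit tried, and the count from GO1 to GO2 stayed at 0 under all of them. No member change moved by more than 0.08 on the log2 scale, and the sign changed once, for Pkmyt1 from NGOs to FGOs. Of 100 alternative values of the member changes, 88 lay within the 95% interval for counting error of the main value. The others, among them Ccnb1, Wee2 and Mos from NGOs to FGOs under other scalings, lay outside it, so these intervals do not cover the choice of scaling. The cyclin B to Cdk1 ratio from NGOs to FGOs changed 2.70-fold in counts without length. The ratio of CDC25 to the inhibitory kinases changed by a factor of 0.795 without Cdc25c and 0.812 with Wee1 added. Median percentiles fell to 88.7 in NGOs and 91.7 in FGOs, with 87.1 in GO1 and 89.8 in GO2 over detected genes, and in counts without length to 90.1 in NGOs and 91.2 in FGOs, with 88.3 in GO1 and 90.3 in GO2. Over the 150 bases nearest the start, CANNTG was in 2 promoters, and the numbers with the other motifs were as over the whole window. With the libraries scaled to NGOs, an alternative added after the data had been seen, both patterns over the 4 libraries again held 4 genes. Without a second library per stage, variation between oocyte pools remains unmeasured.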
